A study of Mus musculus with 32 samples.

Results

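The genes described here encode the protein components of the cytosolic ribosome, measured in the ear and the back skin of NC/Nga mice with Affymetrix Clariom D arrays, each of 1 sample. All genes were taken whose platform symbol begins with Rpl or Rps and a digit, which gave 72 symbols. The 10 that name a pseudogene, an S6 kinase, an Rps19 binding protein or a like-gene ending in l1 were left out, so that 62 members remained of the 22206 transcript clusters tested. Where several clusters carried 1 symbol, the 1 to use was to be chosen by the highest mean level over all 32 arrays, but each member had a single cluster, so the measured values decided nothing. Of the 62, 52 are core ribosomal proteins, 31 of the large subunit and 21 of the small subunit, and 10 are paralogs or retrotransposed copies, 1 of which (Rps27l) is a p53 target gene.

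The 4 groups were sham back skin, HDM back skin, sham ear and HDM ear, with 8 mice in each. All mice were of the NC/Nga strain, an inbred strain prone to dermatitis, kept under specific pathogen free conditions. The labels neither spell out HDM nor describe the sham treatment, and they give no age. Arrays of the 2 sites carry the same mouse numbers, and whether a number marks a single animal is not stated. Each array holds RNA of a whole skin or ear punch, so that fewer cells of a type and less RNA per cell cannot be told apart.

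A ribosome is made of a small subunit, which reads the mRNA, and a large subunit, which joins the amino acids, and each is built from ribosomal RNA and many different proteins. Most mRNAs of these proteins start with a cytosine followed by a run of pyrimidines, the 5′ terminal oligopyrimidine (TOP) element, through which the growth kinase complex mTORC1 and the RNA-binding protein Larp1 govern their translation. Free Rpl5 and Rpl11 bind Mdm2 and so tie ribosome assembly to p53. In mouse skin this is known from mutations of Rps19 and Rps20, which darken the skin through p53 in keratinocytes.

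Start sites of the members are shown because the TOP element is the feature that sets their mRNAs apart. RefSeq promoter windows of GRCm38.p6 were matched to 50 of the 62 members, 41 of them core. In each line 20 bases before and 25 bases from the annotated start are given, 5′ to 3′, and capitals mark the start base, with the run of C or T that begins there where it holds at least 5 bases. The first 6 have such a run at the start used, and the last 3 do not. Rpl15 lies at chr14:18270962-18271006 (minus strand), Rpl35 at chr2:39005107-39005151 (minus), Rps6 at chr4:86857343-86857387 (minus), Rps18 at chr17:33955641-33955685 (minus), Rpl38 at chr11:114668560-114668604 (plus) and Rps10 at chr17:27635220-27635264 (minus). Rpl11 lies at chr4:136053369-136053413 (minus), Rpl5 at chr5:107900508-107900552 (plus) and Rps7 at chr12:28635929-28635973 (minus).
Rpl15: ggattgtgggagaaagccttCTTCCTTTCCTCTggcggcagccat
Rpl35: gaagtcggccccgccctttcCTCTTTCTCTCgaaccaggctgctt
Rps6: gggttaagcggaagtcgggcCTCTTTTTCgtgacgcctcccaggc
Rps18: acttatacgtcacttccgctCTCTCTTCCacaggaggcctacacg
Rpl38: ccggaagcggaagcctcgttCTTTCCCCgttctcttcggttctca
Rps10: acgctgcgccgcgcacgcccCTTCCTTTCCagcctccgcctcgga
Rpl11: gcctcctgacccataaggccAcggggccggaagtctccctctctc
Rpl5: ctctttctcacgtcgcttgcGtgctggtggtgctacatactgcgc
Rps7: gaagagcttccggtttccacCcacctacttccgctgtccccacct

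The longest run, of 13 bases, was that of Rpl15. A start base C followed by a run of at least 5 pyrimidines, counting the C, was found at 10 of the 41 core members (24.4%), against 2.47% of the other 32790 promoter windows in the table. A run of 8 or more pyrimidines that touched the 10 bases on either side of the start was present in 41.5% of core members and in 14% of the others. Many members, Rpl11 among them, start at another base in this annotation, and the annotated start need not be the base at which transcription begins in skin. Rpl5 is counted here without a run, but its window starts inside the gene. Its RefSeq gene position begins 20 bases earlier, at chr5:107900508, with a C and a run of more than 5 pyrimidines. Windows of some other members, such as Rpl22, also start inside the gene position. Over the whole window of 300 bases and on both strands, CCGGAAGT (a site type of ETS factors) was found in 22% of core windows and 3.86% of the others, GGGCGG (a site type of Sp factors) in 53.7% and 35.6%, CACGTG (the E-box bound by Myc) in 7.32% and 7.15%, and AAGATGGC (a site type of Yy1) in 4.88% and 2.74%. Motifs were counted separately, so that they may overlap one another. The TOP run was present in 5 of the 19 core members with a window that were called higher in HDM back skin (26.3%) and in 5 of the 22 that were not (22.7%). Those 2 shares are a description, and no difference between them was tested.

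The labelled sites were visible in their markers. Basal keratinocyte markers averaged between 15.08 and 16.77 on the log2 scale on every array of both ear groups. Cartilage markers averaged 6.73 ± 0.13 (SD, n = 8) in sham ear and 3.49 ± 0.15 in sham back skin, and 6 of 7 were higher in ear. Hair matrix and shaft keratin markers averaged 12.53 ± 2.59 in sham back skin and 5.78 ± 0.67 in sham ear, and all 11 were lower in ear. The spread of the hair markers in sham back skin came largely from mouse 1, at 7.18, and mouse 2, at 10.63, while the other 6 arrays lay between 12.03 and 14.63. Both arrays also had the highest neutrophil marker means of that group, 7.91 and 8.11.

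Core members were lowest in sham back skin and highest in ear. The mean over the 52 core members was 14.90 ± 0.19 (SD, n = 8; log2 expression, arrays between 14.51 and 15.08) in sham back skin. In HDM back skin it was 15.30 ± 0.12, with arrays between 15.15 and 15.47, so that the back skin groups did not overlap. It was 15.56 ± 0.25 in sham ear, between 15.17 and 15.88, and 15.62 ± 0.17 in HDM ear, between 15.38 and 15.85. The ear groups overlapped widely, and all but the lowest HDM back skin array lay within the sham ear range. Large and small subunit genes had the same order of sham back skin, HDM back skin and ear. The large subunit genes averaged 14.97 ± 0.20, 15.42 ± 0.12, 15.67 ± 0.27 and 15.78 ± 0.20 in sham back skin, HDM back skin, sham ear and HDM ear. The small subunit genes averaged 14.81 ± 0.18, 15.12 ± 0.12, 15.41 ± 0.21 and 15.38 ± 0.14 in that order.

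**Figure D1:**
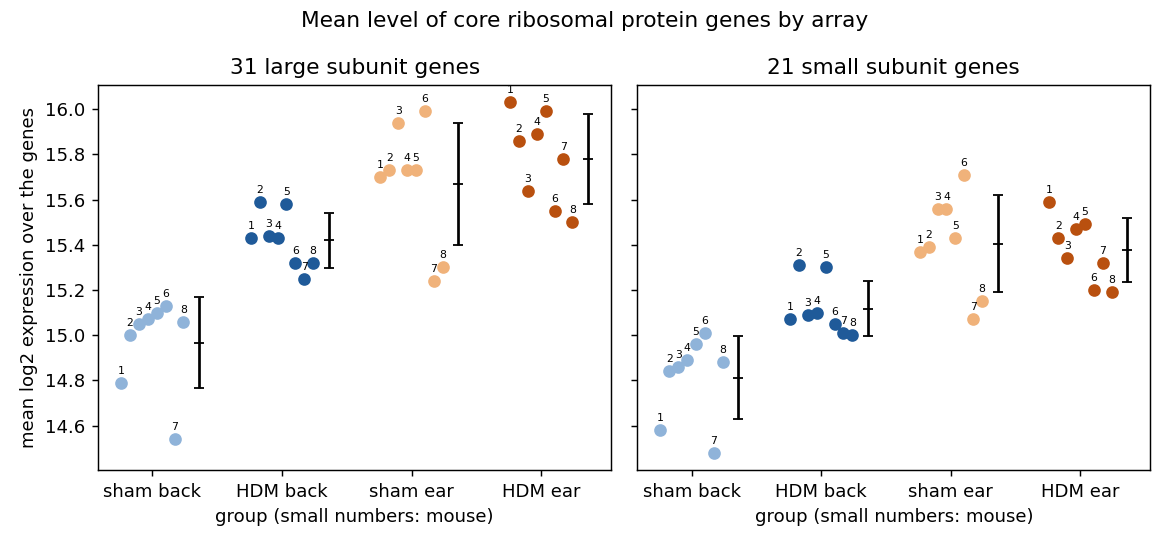
Mean log2 expression of the 31 large subunit genes (left) and the 21 small subunit genes (right) on each array, by group, with the mouse number above each point and bars for the mean ± SD of 8 arrays. Every HDM back skin array lies above every sham back skin array for the large subunit (lowest 15.25 against highest 15.13), the small subunit groups meet (15.00 against 15.01), mice 1 and 7 are lowest in sham back skin, and mice 7 and 8 are lowest in sham ear.

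Members moved together from array to array within a group. Sham back mouse 7 was the lowest of its group for 38 of the 52 core members and mouse 1 for another 12. In sham ear, mouse 7 was lowest for 28 and mouse 8 for 16, and mouse 6 was highest for 24. In HDM back skin mice 7 and 8 were lowest for 17 and 13, and in HDM ear mice 8 and 6 for 25 and 13. The core mean of sham back mouse 7 was 14.51 and that of mouse 1 was 14.71, against 14.93 to 15.08 on the other 6 arrays. Mouse 7 also had the highest skeletal muscle marker mean of that group, 15.83, the highest adipocyte marker mean, 12.18, and the lowest cell cycle marker mean, 9.26. The other arrays did not follow this pattern. Mouse 5 was close to mouse 7 in muscle (15.69) and adipocyte (11.98) markers, yet its core mean was 15.04. Mouse 1, with its low core mean, had 12.41 for muscle and 10.40 for cell cycle markers. The part of these markers in the low ribosomal protein values was not tested.

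In back skin, 25 of the 62 members were higher with HDM and 0 lower, at a Benjamini-Hochberg adjusted p under 0.05 in the limma fit over all transcript clusters. All 25 are core members, 17 of 31 in the large and 8 of 21 in the small subunit, and whether the subunits differ was not tested. Over all clusters tested, 6.18% were called higher and 8.56% lower. The members' median difference, HDM minus sham, was 0.38 and that of all clusters was 0.01. All 52 core differences were above 0, between 0.02 and 0.91. At an unadjusted p under 0.05, 37 members were higher and 0 lower. Among the 1202 other clusters with a mean level of at least 13, which are as bright as most members, 17.9% were called higher and 14.8% lower, with a median of 0.04.

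The count in back skin rests partly on single arrays. It was 18 without sham back mouse 7, also 18 without HDM back mouse 5, and 31 without sham back mouse 6. With sham back mice 1 and 2, which stood apart in hair and neutrophil markers, both left out, 18 members were called higher. When array medians were made equal, 36 members were higher, the median of all clusters moved from 0.01 to 0.13, the core median from 0.39 to 0.52, and the shares of all clusters called higher and lower became 11% and 6.27%.

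The largest rises were in Rpl5, Rpl22 and Rpl19. Rpl5, the 5S rRNA carrier that binds Mdm2 when free, lay between 14.24 and 15.04 (median 14.90) in sham back skin and between 15.25 and 16.01 (median 15.70) in HDM back skin. Every HDM array was above every sham array, and the difference was 0.91 ± 0.19 (SE, adjusted p = 0.00109), a fold of 1.87. Rpl11, its partner in the 5S particle, ranged from 15.70 to 16.65 (median 16.36) in sham back skin and from 16.76 to 17.39 (median 17.09) in HDM back skin. Its groups did not overlap either, and the difference was 0.78 ± 0.16 (adjusted p = 0.000683). Both partners of the 5S particle therefore rose in back skin.

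Rpl22, an RNA-binding protein of the large subunit that T cell development requires, ranged from 13.63 to 14.67 in sham and from 14.96 to 15.73 in HDM back skin. The sham value of 13.63 came from mouse 7, and the next array was at 14.30, yet the groups did not overlap with or without it. Its difference was 0.90 ± 0.20 (adjusted p = 0.00212). Rpl19, a large subunit protein often used as a reference gene, ranged from 15.04 to 15.90 in sham and from 16.07 to 16.68 in HDM back skin. The groups again lay apart, with a difference of 0.89 ± 0.20 (adjusted p = 0.00182). A gene taken as a constant reference in other work thus differed between these groups, by a fold of 1.86 if the deposited values are true log2 levels.

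Rps7 had the largest rise of the small subunit, a protein that, like Rps19 and Rps24, is mutated in Diamond-Blackfan anaemia. Its arrays lay between 15.26 and 16.03 (median 15.54) in sham back skin and between 16.18 and 16.92 in HDM back skin, without overlap. The difference was 0.87 ± 0.15 (adjusted p = 9.84e-05), the smallest adjusted p of any member in back skin. Rps23, which sits at the decoding centre, differed by 0.59 ± 0.12 (adjusted p = 0.000913), from 16.63 ± 0.27 to 17.23 ± 0.20, with no overlap. Rpl35, at the exit of the peptide tunnel, differed by 0.70 ± 0.17 (adjusted p = 0.00517), from a sham range of 13.90 to 14.86 to an HDM range of 14.91 to 15.54. For each of the 3, HDM arrays were all above sham arrays, for Rpl35 by a narrow gap.

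Rps6, the small subunit protein that S6 kinases phosphorylate downstream of mTORC1, lay between 16.08 and 16.86 in sham and between 16.79 and 17.08 in HDM back skin. The groups overlapped, and the difference of 0.43 ± 0.15 was only just called (adjusted p = 0.0472). This call was lost under 16 of 26 alternative settings, where the adjusted p reached 0.135. Rpl36, of the large subunit, ranged from 11.75 to 12.35 in sham and from 11.94 to 12.76 in HDM back skin. Its difference of 0.43 ± 0.15 (adjusted p = 0.0484) was lost under 14 of 26 settings, with an adjusted p of up to 0.115.

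Other core members with a defined role did not pass the test in back skin. Rps19, the gene most often mutated in Diamond-Blackfan anaemia, had 13.10 ± 0.21 in sham and 13.30 ± 0.23 in HDM back skin, a difference of 0.20 ± 0.12 (adjusted p = 0.307). Rps4x, the X-linked copy of Rps4, differed by 0.09 ± 0.11 (adjusted p = 0.656), with sham arrays between 14.61 and 15.29 and HDM arrays between 14.96 and 15.22. Rpl38, which the translation of Hox mRNAs in the embryo requires, had 12.71 ± 0.26 and 13.03 ± 0.30, a difference of 0.32 ± 0.12 (adjusted p = 0.08). Rpl3, at the peptidyl transferase centre, had 15.57 ± 0.25 and 15.91 ± 0.14, a difference of 0.34 ± 0.12 (adjusted p = 0.0658). The means of all 4 were higher with HDM, by less than the test could call.

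Markers of other cell types moved in the same comparison. Cell cycle markers rose in 7 of 12 genes and fell in 0, and at an unadjusted p under 0.05 9 were higher and 0 lower. Their array means lay between 9.26 and 10.42 in sham and between 10.28 and 11.01 in HDM back skin. Neutrophil markers rose in 6 of 7, with array means of 5.30 to 8.11 in sham and 9.83 to 11.33 in HDM back skin. Adipocyte markers fell in 6 of 9, with means of 11.11 to 12.18 and 9.83 to 10.85, and sebaceous gland markers in 7 of 7, with means of 12.47 to 13.61 and 8.52 to 10.91. The part of these markers in the rise of ribosomal protein genes was not tested.

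In ear, HDM left most members without a call. Of the 62 members, 6 were called higher and 4 lower, against 16.4% and 15.5% of all clusters, so both shares of the members (9.68% and 6.45%) were below the background. The median difference of the members was 0.05 and that of all clusters was -0.02. Among core members 4 were higher (Rpl6, Rpl15, Rpl29 and Rps13) and 3 lower (Rps15, Rps20 and Rps24), of 52. At an unadjusted p under 0.05, 7 members were higher and 7 lower. The other 1202 bright clusters were called higher in 36.2% and lower in 24.3%, with a median of 0.1. The count of lower members was 1 without sham ear mouse 6, 2 without sham ear mouse 3, 2 without sham ear mouse 4, and 6 without sham ear mouse 7 or 8. After quantile normalization the members' median was -0.16 and 10 were lower, so the direction of the median in ear depends on the scaling.

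The 4 core members higher in HDM ear were also higher in HDM back skin, which is 4 of 6 members called higher in ear and 4 of 25 in back skin. Rpl6, a large subunit protein with roles in the DNA damage response, lay between 15.08 and 15.35 in sham back skin and between 15.46 and 15.77 in HDM back skin. In ear it lay between 15.36 and 15.78 (median 15.43) in sham and between 15.78 and 16.40 (median 16.19) with HDM, so that the ear groups met only at 15.78. The difference was 0.39 ± 0.09 in back skin (adjusted p = 0.00417) and 0.63 ± 0.09 in ear (adjusted p = 4.47e-06). Rpl6 thus had the smallest adjusted p of any member in ear.

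Rpl15, whose TOP run is the longest of those shown, lay between 15.17 and 15.89 in sham back skin and between 15.97 and 16.84 in HDM back skin. In ear it lay between 15.37 and 16.31 (median 15.67) in sham and between 16.10 and 16.87 (median 16.58) with HDM. The ear groups overlapped, since sham ear mice 3 and 6 lay above HDM ear mice 3, 6 and 8. Its difference was 0.71 ± 0.16 in back skin (adjusted p = 0.00216) and 0.73 ± 0.16 in ear (adjusted p = 0.000535). Rpl29, a large subunit protein also known for binding heparin, differed by 0.66 ± 0.18 in back skin (adjusted p = 0.0105) and by 0.60 ± 0.18 in ear (adjusted p = 0.00928). Rps13, which joins the subunits at a bridge, differed by 0.39 ± 0.11 (adjusted p = 0.0166) and by 0.35 ± 0.11 (adjusted p = 0.0148). For these 4 genes the effects at the 2 sites differed by between -0.06 and 0.24, and none of these differences was called.

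Rps20 and Rps24 fell in HDM ear. Rps20, mutations of which darken mouse skin, reached 17.24 in sham ear (mean 16.64 ± 0.42) and lay between 16.05 and 16.57 in HDM ear. The groups overlapped, and the sham arrays were the more widely spread. The difference was -0.43 ± 0.14 (adjusted p = 0.0186), and in back skin it was 0.40 ± 0.14 (adjusted p = 0.051), above 0 but not called. The ear call of Rps20 was lost under 3 of 26 settings, with array weights, with only the groups compared and without sham ear mouse 6, where the adjusted p reached 0.054. Rps24, also a gene of Diamond-Blackfan anaemia, lay between 16.63 and 18.26 in sham ear and between 16.75 and 17.32 in HDM ear, a difference of -0.39 ± 0.15 (adjusted p = 0.0427). That call was lost under 14 of 26 settings, with an adjusted p of up to 0.125. In back skin Rps24 rose by 0.49 ± 0.15 (adjusted p = 0.0248), without overlap between the groups, a call lost without sham back mouse 7 or HDM back mouse 5 (adjusted p up to 0.061). Rps15, of the small subunit head, fell in ear from 15.72 ± 0.31 to 15.38 ± 0.14, a difference of -0.35 ± 0.12 (adjusted p = 0.0251).

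Cell type markers moved widely with HDM in ear. Cell cycle markers rose in 12 of 12 genes, with array means of 8.63 to 9.31 in sham and 10.15 to 11.33 in HDM ear. Neutrophil markers rose in 6 of 7, with means of 4.13 to 5.75 and 8.98 to 14.20, and macrophage and monocyte markers in 9 of 9, with means of 9.69 to 10.13 and 11.34 to 13.57. Adipocyte markers fell in 9 of 9, with means of 8.91 to 9.42 and 6.72 to 8.18. The part of these markers in the values of ribosomal protein genes, or of the translation and assembly factors described further on, was not tested.

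**Figure D2:**
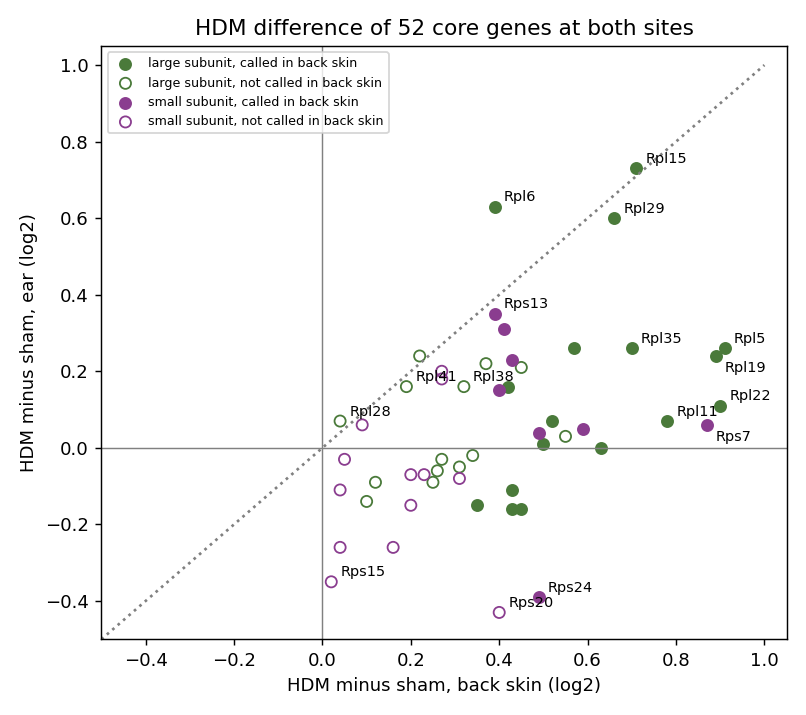
Difference between HDM and sham (log2) in back skin (horizontal) and ear (vertical) for the 52 core members, with filled points for genes called in back skin and a dotted line where both differences are equal. All points lie right of 0, most lie below the dotted line, and Rpl6 at 0.39 and 0.63 lies above it.

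The HDM effect was tested for a difference between the sites in the same fit. Taken with its sign, it was smaller in ear than in back skin for 9 of the 62 members and larger for 0, against 3.37% and 6.77% of all clusters. The members' median of this difference, ear effect minus back skin effect, was -0.31, and that of all clusters was -0.01. The 9 were Rpl9, Rpl11, Rpl14, Rpl17, Rpl31, Rps7, Rps20, Rps23 and Rps24, all core members. At an unadjusted p under 0.05, 23 were smaller and 0 larger. Among called members the largest differences were -0.88 ± 0.21 for Rps24 (adjusted p = 0.00684), -0.83 ± 0.20 for Rps20 (adjusted p = 0.0068) and -0.81 ± 0.21 for Rps7 (adjusted p = 0.0113). Rpl11 differed by -0.71 ± 0.22 (adjusted p = 0.0354), a call that was lost under 9 of 41 settings, where the adjusted p reached 0.0608. Rpl5 and Rpl22, with back skin effects at least as large, differed by -0.64 ± 0.27 (adjusted p = 0.127) and -0.79 ± 0.29 (adjusted p = 0.0752).

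This count also moved with single arrays. It was 4 without sham ear mouse 3 or without sham ear mouse 6, and 13 without sham ear mouse 7. It was 5 without sham back mouse 1 or 7, without HDM back mouse 2, or without HDM ear mouse 7 or 8. It was also 5 when sham back mice 1 and 2 were both left out. Made equal in their medians, the arrays gave 13 members, a core median of -0.44 and a median of all clusters of -0.13, and the shares of all clusters became 5.9% smaller and 4.98% larger in ear. Quantile normalization gave 25 members, and shares of 4.92% and 4.98%.

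**Figure D3:**
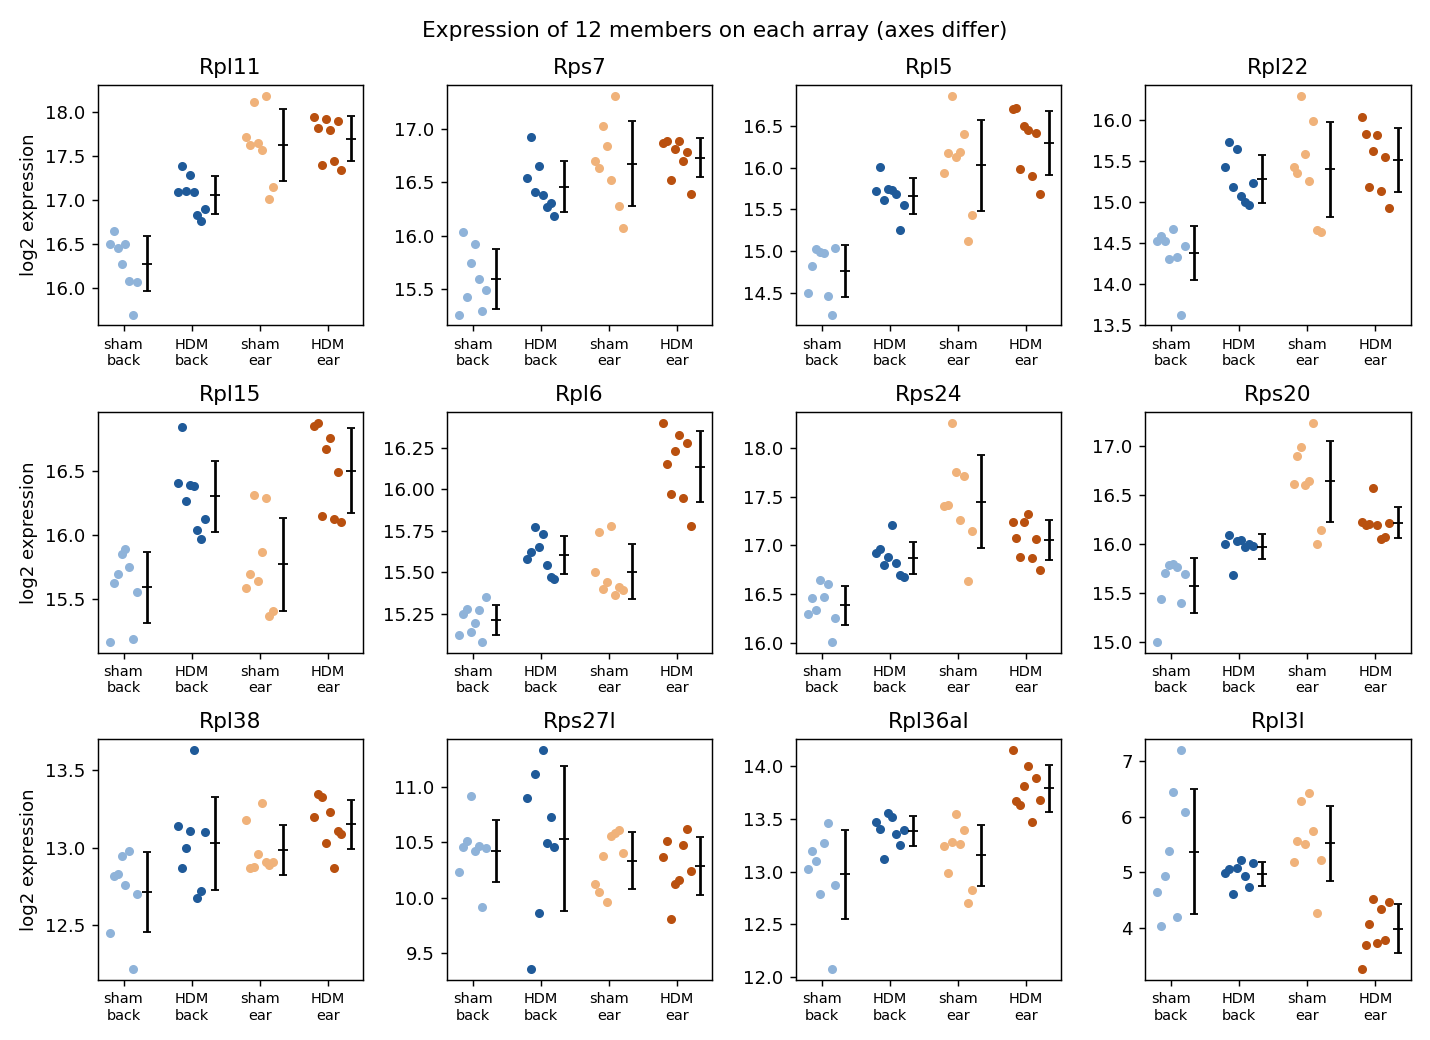
Log2 expression of 12 members on each of the 8 arrays per group, with bars for the mean ± SD and a separate axis for each gene. For Rpl11, Rps7 and Rpl5 all sham back skin arrays lie below every other array, for Rpl22 they meet the 2 lowest sham ear arrays, Rpl15 and Rpl6 have higher HDM arrays at both sites, Rps20 and Rps24 reach their highest values in sham ear, and Rpl3l is lowest in HDM ear.

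Sham ear was higher than sham back skin for 45 of the 62 members and lower for 0, against 15.6% and 14.1% of all clusters. The median difference, ear minus back skin, was 0.64 for the members and 0.04 for all clusters. Core members accounted for 40 of the 45, 24 of 31 in the large and 16 of 21 in the small subunit. At an unadjusted p under 0.05, 49 members were higher and 1 lower. The other 1202 bright clusters were called higher in 28.7% and lower in 27%, with a median of 0.00. This comparison uses the same sham back skin arrays as that of HDM with sham in back skin, so a low value on one of them moves both. Left out together, sham back mice 1 and 2 lowered the count to 38, and equal array medians raised it to 51, with a core median of 0.79, a median of all clusters of 0.16, and shares of 22.8% and 11.1% of all clusters called higher and lower.

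Rpl11, Rpl36 and Rpl35 had the largest differences between the sham sites. Rpl11 lay between 15.70 and 16.65 in sham back skin and between 17.01 and 18.18 in sham ear, a difference of 1.35 ± 0.16 (adjusted p = 3.57e-08) and a fold of 2.54. Rpl36 lay between 11.75 and 12.35 and between 12.77 and 13.72, a difference of 1.30 ± 0.15 (adjusted p = 3.09e-08). Rpl35 lay between 13.90 and 14.86 and between 15.10 and 16.28, a difference of 1.29 ± 0.17 (adjusted p = 6.61e-07). In all 3 genes every ear array was above every back skin array.

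Members with textbook roles followed in the same direction. Rpl5 was 1.28 ± 0.19 higher in sham ear (adjusted p = 3.04e-06), without overlap between the groups. Rpl22 was 1.02 ± 0.20 higher (adjusted p = 0.000182), with the lowest sham ear arrays at 14.63 and 14.66, within the sham back skin range. Rpl3 was 0.89 ± 0.12 higher (adjusted p = 1.18e-06), from 15.57 ± 0.25 to 16.46 ± 0.31, without overlap. Among small subunit members, Rps19 was at 13.10 ± 0.21 in back skin and 13.85 ± 0.27 in ear, a difference of 0.74 ± 0.12 (adjusted p = 1.31e-05), Rps6 was 0.74 ± 0.15 higher (adjusted p = 0.000244) and Rps4x 0.39 ± 0.11 higher (adjusted p = 0.00868). Rps19 therefore differed between the sham sites without overlap, although its HDM difference in back skin was not called.

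A few core members had near-equal means in the sham sites. Rpl41, which encodes a very short basic protein of the large subunit, had 17.11 ± 0.13 in sham back skin and 16.96 ± 0.24 in sham ear, a difference of -0.14 ± 0.11 (adjusted p = 0.343), the single core difference below 0. Rps26, at the mRNA exit channel, had 10.14 ± 0.39 and 10.20 ± 0.24. Rpl15, with 15.59 ± 0.28 and 15.77 ± 0.36, and Rps16, with 14.70 ± 0.22 and 14.89 ± 0.19, were called for HDM in back skin but not between the sham sites. Rpl38 had 12.71 ± 0.26 and 12.99 ± 0.16 (adjusted p = 0.0963). In all, 8 of the 52 core members were called in none of the 5 comparisons made here. They were Rpl7a, Rpl28, Rpl35a, Rpl38, Rpl41, Rps15a, Rps21 and Rps26.

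**Figure D4:**
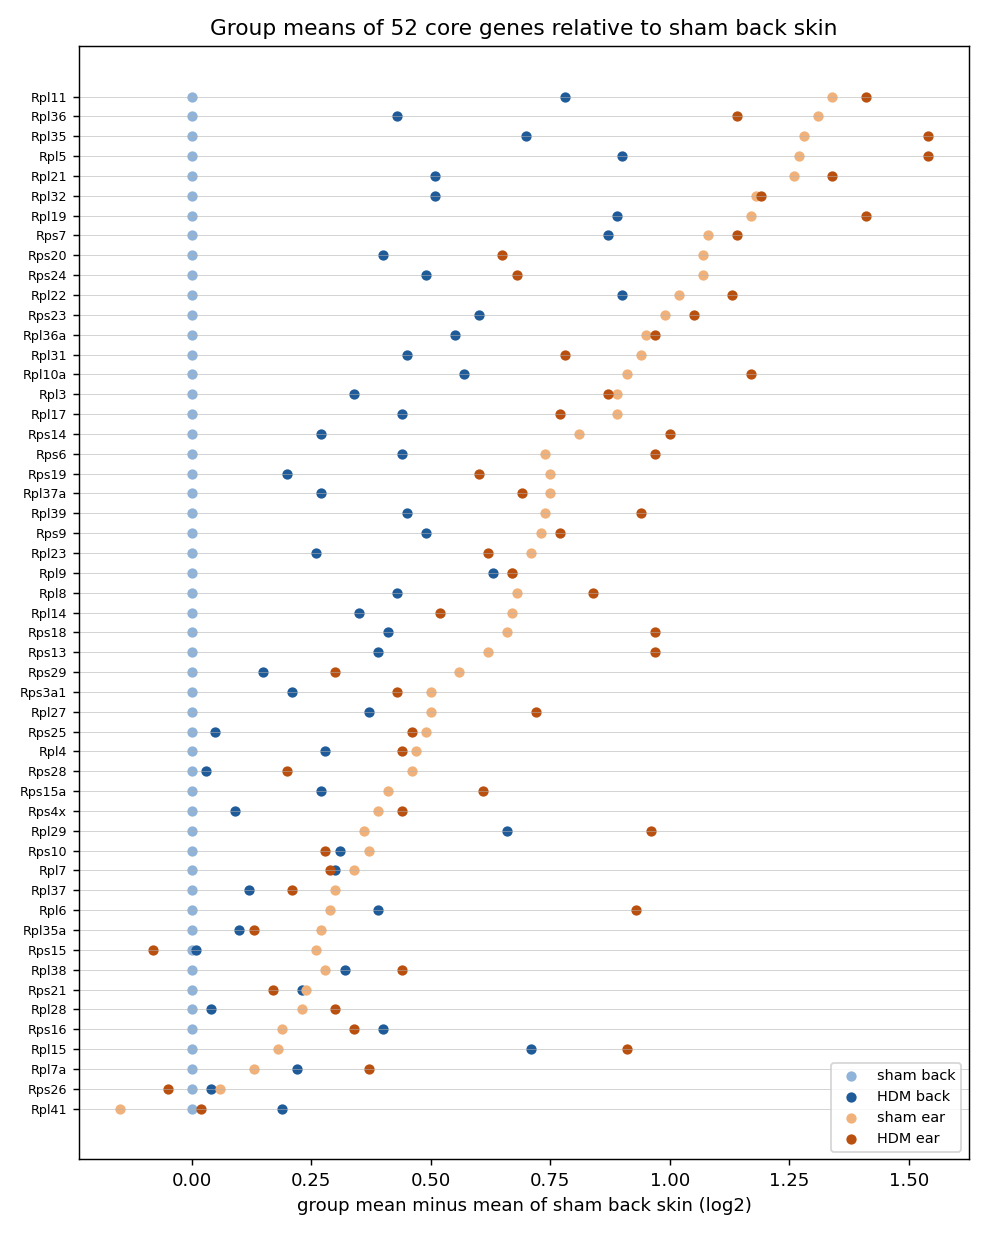
Mean of each group minus the mean of sham back skin (log2) for the 52 core members, sorted by the sham ear value, with 1 point per group. All values of a gene share the same sham back skin mean as their zero. Sham back skin is the lowest mean for 49 of the 52 genes, and Rpl11, Rpl36 and Rpl35 are at the top.

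In a comparison added after the others were seen, HDM ear was higher than HDM back skin for 25 of the 62 members and lower for 1, against 16.8% and 11.2% of all clusters, with a members' median of 0.29 and a median of 0.03 over all clusters. Rpl35 had the largest core difference, 0.84 ± 0.17 (adjusted p = 0.000354), from an HDM back skin range of 14.91 to 15.54 to an HDM ear range of 15.61 to 16.62. Rpl11 differed by 0.64 ± 0.16 (adjusted p = 0.00196) and Rpl5 by 0.63 ± 0.19 (adjusted p = 0.0108), both with overlap. Rpl22, at 15.28 ± 0.29 and 15.51 ± 0.39, was not called (adjusted p = 0.45), nor was Rps7, at 16.46 ± 0.24 and 16.73 ± 0.19 (adjusted p = 0.179).

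Cell type markers also differed between the sham sites. All 11 hair matrix and shaft markers were lower in sham ear, with array means of 7.18 to 14.63 in back skin and 4.91 to 6.80 in ear. Adipocyte markers were lower in 8 of 9, with array means of 11.11 to 12.18 and 8.91 to 9.42. Cell cycle markers were lower in 9 of 12 and higher in 0, at unadjusted p under 0.05 likewise 9 and 0, with array means of 9.26 to 10.42 and 8.63 to 9.31. Basal keratinocyte markers were higher in 4 of 7 and lower in 0, with array means of 15.20 to 16.17 and 16.40 to 16.77. Fibroblast markers were higher in 3 of 7 and lower in 0, suprabasal keratinocyte markers higher in 4 of 7 and lower in 2, and cartilage markers higher in 6 of 7. Macrophage and monocyte markers were lower in 5 of 9, endothelial markers in 4 of 6 and stress keratinocyte markers in 3 of 4, each with 0 higher. Skeletal muscle markers were lower in 4 of 12 and higher in 1. So ribosomal protein genes were higher in sham ear, while cell type markers went both ways and cell cycle markers were lower. The part of any of these in the ribosomal protein values was not tested.

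Among the 10 paralogs and copies, Rpl3l, the Rpl3 paralog of striated muscle, was the 1 that fell in HDM ear. It lay between 4.27 and 6.43 (median 5.54) in sham ear, above background on 7 of 8 arrays. In HDM ear it lay between 3.26 and 4.51 and below the array background on all 8, and the fall was called (adjusted p = 0.000468). Set against the mean HDM ear background of 4.82, the sham ear mean of 5.52 is 1.63-fold higher. The mean background of sham ear was itself 5.20, close to that sham ear mean. The value of 1.63 is therefore not a firm lower bound. Skeletal muscle markers fell in 12 of 12 genes in HDM ear, from array means of 11.38 to 13.46 to means of 8.22 to 10.57. Rpl3 itself, the widespread form, was at 16.46 ± 0.31 and 16.44 ± 0.19 in the same groups. In sham back skin Rpl3l was above background on 5 of 8 arrays, between 4.04 and 7.20, and the muscle marker means of those 8 arrays ran from 10.57 to 15.83. It was also lower in HDM ear than in HDM back skin, at least 1.11-fold (adjusted p = 0.0235), a call lost without HDM ear mouse 1, which left 0 members lower. The part of muscle in these values was not tested.

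Rps4l and Rpl36al rose in HDM ear. Rps4l, an autosomal relative of Rps4x, lay between 5.68 and 7.18 in sham ear and between 6.70 and 8.18 (median 7.47) in HDM ear. Its groups overlapped, and the difference was 1.06 ± 0.27 (adjusted p = 0.00231). It was also higher in sham ear than in sham back skin, by 0.73 ± 0.27 (adjusted p = 0.038), a call lost under 8 of 26 settings, where the adjusted p reached 0.104. Rpl36al, the autosomal counterpart of the X-linked Rpl36a, lay between 12.70 and 13.55 in sham ear and between 13.47 and 14.15 in HDM ear, a difference of 0.63 ± 0.15 (adjusted p = 0.00108). Rpl36a was at 14.90 ± 0.55 and 14.92 ± 0.40 in the same groups, a difference of 0.03 ± 0.20 (adjusted p = 0.946). Both copies passed the test in ear and Rps4x and Rpl36a did not, though the difference between copy and parent was not tested.

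Other copies gave no HDM call. Rps27l, a p53 target, was at 10.42 ± 0.28, 10.53 ± 0.65, 10.33 ± 0.26 and 10.29 ± 0.26 in sham back skin, HDM back skin, sham ear and HDM ear. Rpl39l, a testis paralog, lay near background, with group means between 4.93 and 5.60. Rpl10l, another testis paralog, and the retrogene Rps23rg1 were below background on all arrays of every group, so no fold is given for them, although Rps23rg1 was among the 45 called higher in sham ear. Rpl32l, Rpl37rt and Rps27rt, which are retrotransposed or like copies, were higher in sham ear than in sham back skin by 0.84 ± 0.16 (adjusted p = 7.61e-05), 0.29 ± 0.11 (adjusted p = 0.0456) and 0.74 ± 0.14 (adjusted p = 0.000144). Copies near-identical to a core gene can share probes with it, and ribosomal protein genes have many processed pseudogenes, so values of single members are uncertain to that extent.

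Rpl22l1, the like-gene that can replace Rpl22 and that the rule left out, was singled out after its values were seen. It was at 12.48 in sham back skin and 10.98 in sham ear, a difference of -1.51 ± 0.25 (adjusted p = 1.21e-05), while Rpl22 was 1.02 ± 0.20 higher in sham ear. In back skin Rpl22l1 differed by 0.37 ± 0.25 with HDM, which was not called (adjusted p = 0.349), while Rpl22 rose by 0.90 ± 0.20.

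A list of further ribosomal protein genes held 6 that were measured. Of these, 2 are the like-genes Rpl7l1 and Rpl22l1 that the rule left out, and the others are named outside the numbered Rpl and Rps series. With HDM 1 of 6 rose in back skin, and 1 of 6 fell in ear (16.7% each), against 6.18% and 15.5% of all clusters. Between the sham sites 4 of 6 were higher in ear and 1, Rpl22l1, was lower, against 15.6% and 14.1% of all clusters. Rplp0, of the acidic stalk that recruits elongation factors, rose in back skin by 0.54 ± 0.12 (adjusted p = 0.00155), from 16.39 to 16.93, and was 1.36 ± 0.12 higher in sham ear than in sham back skin (adjusted p = 6.79e-11). Rplp1, its stalk partner, differed by 0.08 ± 0.10 in back skin (adjusted p = 0.694) and was 0.53 ± 0.10 higher in sham ear (adjusted p = 0.000136). Rpsa, of the small subunit, fell in HDM ear, a difference of -0.33 ± 0.13 (adjusted p = 0.0487). In back skin its difference was 0.29 ± 0.13, which was not called (adjusted p = 0.136). Its ear effect minus its back skin effect was -0.62 ± 0.18 (adjusted p = 0.0259). For Rplp0 the ear effect minus the back skin effect was -0.64 ± 0.17 (adjusted p = 0.011). Rpsa and Rplp0 were the 2 of 6 for which the HDM effect was called different between the sites.

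Of 18 further listed genes with TOP mRNAs, most of them translation factors, 8 rose and 0 fell in HDM back skin. In ear 7 rose and 2 fell, and the medians were 0.35 in back skin and 0.27 in ear. The list also holds Tpt1, Npm1, Nap1l1, Naca and Btf3, which are not initiation or elongation factors. Npm1, Naca and Btf3 are among the 8 called in back skin, and Npm1, Btf3 and Nap1l1 among the 7 in ear. At an unadjusted p under 0.05, 9 of the 18 were higher and 0 lower in back skin. The called shares were 44.4% higher and 0% lower in back skin, against 6.18% and 8.56% of all clusters. In ear they were 38.9% and 11.1%, against 16.4% and 15.5%. Eef1b2, an exchange factor for elongation factor 1A, rose in back skin by 0.63 ± 0.14 (adjusted p = 0.00261) and not by a called amount in ear, 0.31 ± 0.14 (adjusted p = 0.1). Eef1d, of the same exchange complex, rose by 0.41 ± 0.14 (adjusted p = 0.0381) and by 0.64 ± 0.14 (adjusted p = 0.000457). Eef1a1 itself, at 19.57 and 19.55 in back skin, was called at neither site. Between the sham sites 9 of the 18 were higher in ear and 4 lower (50% and 22.2%), against 15.6% and 14.1% of all clusters.

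Initiation, elongation and release factors outside the TOP class rose in 6 of 14 genes in back skin and in 11 of 14 in ear. In ear 1 fell, and the medians were 0.24 in back skin and 0.71 in ear. In HDM ear cell cycle markers rose in 12 of 12 genes and macrophage and monocyte markers in 9 of 9, with medians of 2.06 and 2.64, and their part in this rise was not tested. Eif4a1, the helicase of the cap complex, rose by 0.82 ± 0.14 in back skin (adjusted p = 7.97e-05) and by 1.44 ± 0.14 in ear (adjusted p = 3.18e-09), and this effect was 0.62 ± 0.20 larger in ear (adjusted p = 0.0382). Eif2s2, of the factor that brings the initiator tRNA, rose by 0.40 ± 0.13 (adjusted p = 0.0297) and by 0.85 ± 0.13 (adjusted p = 4.54e-06), and Eif2s3x, its partner, was called at neither site. In sham ear 7 of the 14 were lower than in sham back skin and 1 was higher, while 45 of 62 ribosomal protein genes were higher. In HDM ear, where 11 of these 14 factors rose, 6 of the 62 ribosomal protein genes did. With HDM in ear, 16.4% of all clusters and 36.2% of the other 1202 bright clusters were called higher. In back skin these shares were 6.18% and 17.9%. Between the sham sites, 14.1% of all clusters and 27% of the bright ones were called lower in ear, and 15.6% and 28.7% higher.

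Chaperones, importers and late assembly factors of ribosomal proteins rose in 3 of 20 genes in back skin and in 13 of 20 in ear, with none lower at either site at the adjusted threshold. At an unadjusted p under 0.05, 1 was lower in back skin and 0 in ear. The shares called higher were 15% in back skin and 65% in ear, against 6.18% and 16.4% of all clusters. The same rise of cell cycle markers (12 of 12) and macrophage and monocyte markers (9 of 9) in HDM ear stands beside this count, and its part was not tested. Eif6, called higher at both sites, is counted in this list and also among the initiation factors above. Heatr3, which carries free Rpl5 for import and assembly, rose by 0.60 ± 0.16 in back skin (adjusted p = 0.0101) and by 0.72 ± 0.16 in ear (adjusted p = 0.00076). Rrp7a, a small subunit assembly factor, rose in ear by 0.67 ± 0.12 (adjusted p = 6.09e-05), an effect 0.73 ± 0.17 larger than in back skin (adjusted p = 0.00621). Bccip, a chaperone of Rpl23, was called at neither site. Rrs1, which places the Rpl5 and Rpl11 particle on the large subunit and was singled out after its values were seen, rose in ear from 9.21 to 10.74, by 1.52 ± 0.16 (adjusted p = 2.05e-08), with 0.18 ± 0.16 in back skin (adjusted p = 0.521). Rpl5 and Rpl11 had differences of 0.26 ± 0.19 and 0.07 ± 0.16 in the same ear groups, neither called.

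A further list held 18 measured genes of mTORC1 and its control of TOP mRNAs, with Myc, Mycn and Maf1 among them. Of these 18, 1 rose and 2 fell in HDM back skin, and 7 rose and 2 fell in HDM ear. In back skin these shares (5.56% and 11.1%) were near those of all clusters (6.18% and 8.56%). In ear they were 38.9% and 11.1%, against 16.4% and 15.5%. Without adjustment, at p under 0.05, 1 was higher and 6 lower in back skin, and 9 higher and 4 lower in ear. The list holds activators and inhibitors alike, so its counts give no direction of the pathway. The activator Rheb and the translation repressor Eif4ebp1 were both among the 7 that rose in ear. The inhibitors Tsc1, in ear, and Deptor, in back skin, were among those that fell. Mtor, the kinase, fell in back skin from 10.36 to 9.84, a difference of -0.52 ± 0.15 (adjusted p = 0.0199). Rptor, the scaffold of the complex, was called at neither site, and Mlst8, a further subunit, rose in ear by 0.48 ± 0.16 (adjusted p = 0.0249). These are mRNA levels, and the activity of the complex was not measured.

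On the p53 side, 4 of 10 genes fell and 0 rose in HDM back skin, and at an unadjusted p under 0.05 6 were lower and 0 higher. In ear 3 fell and 1 rose. The shares lower were 40% in back skin and 30% in ear, against 8.56% and 15.5% of all clusters. The shares higher were 0% and 10%, against 6.18% and 16.4%. Cdkn1a, the cell cycle inhibitor that p53 induces, fell in back skin by 0.52 on the log2 scale, from 15.09 to 14.57 (difference -0.52 ± 0.16, adjusted p = 0.028), with 0.19 ± 0.16 in ear (adjusted p = 0.425). Mdm2, the p53 ligase that free Rpl5 and Rpl11 bind, differed by -0.39 ± 0.15 in back skin, which was not called (adjusted p = 0.083). Mdm4, its relative, fell in ear by 1.17 on the log2 scale (difference -1.17 ± 0.26, adjusted p = 0.000504). Rps27l, the p53 target among the members, was called in none of the comparisons.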

How the data were processed

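Expression was measured on 32 arrays, 8 for each of the 4 groups. The deposited values are log2 expression levels per transcript cluster. Per the submitters' processing notes the authors used RMA and the Transcriptome Analysis Console. Their versions and the build were not given in the sources used here. The values span a range that is wide for RMA, and a later rescaling cannot be told from the files. If there was one, directions would hold, but log2 differences and folds would not be true ones.

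The 6640 array control entries among 28846 were left out. Group means were fitted to the other 22206 in R 4.3.3 by limma 3.58.1, with moderated two-sided tests on 32.1 total degrees of freedom and no covariate or block. Calls are those with p below 0.05 after Benjamini-Hochberg adjustment over all 22206. Differences carry the standard error and group means the SD, with n = 8 mice. Whether mice were treated or processed together is not stated, and no batch was given. The background of an array was the median of its negative controls, between 4.43 and 5.38. A gene below it on all 8 arrays of a group has only a bound, with the background in its place. Mean backgrounds differed between groups, from 4.72 in sham back skin to 5.20 in sham ear, so such bounds are approximate. Array number limits precision.

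The members and gene lists were chosen with earlier results of these data known. Named members are those of a list of ribosomal proteins with known roles (Rps3, Rps27, Rpl10 and Rpl13a of that list are not analysed here) and the 3 largest rises and falls called in each of 4 comparisons, and from each pathway list the first 3 measured genes. Further members are named where a count or pattern needed them, and these were chosen after their values were seen. HDM ear against HDM back skin and the bright clusters were also added after the data were seen. Start sites came from RefSeq promoters of GRCm38.p6, 1 window per gene. The fit was tested on simulated data.

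Alternatives were array weights, equal array medians, quantile normalization, a filter on dim clusters, controls included, a variance trend, only the groups compared, 2 replicate blocks and leaving out arrays. Same-numbered arrays of the back skin and ear groups of 1 agent correlated in their deviations between -0.11 and 0.14, with 1 of 16 pairs over 0.1, so the numbers were not used to pair samples.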

Additional observations from a re-analysis of the deposited data

Results flagged for a closer look

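The named members and the mean of the core members were looked at in 88 groups of 8 arrays. In 5 of these, all of named members, 1 array stood further from its neighbour than Dixon's critical value for 8 samples allows. Chance alone gives about 1 in 20, and the groups are not independent, since members moved together from array to array. Rps4x was 14.90 in sham ear mouse 8, against 15.32 to 15.68 on the others. Rpl22 was 13.63 in sham back mouse 7, against 14.30 to 14.67. Rps4l was 7.69 in HDM back mouse 7, against 5.44 to 6.16. Rps20 was 15.68 in HDM back mouse 3, against 15.97 to 16.09, and 16.57 in HDM ear mouse 4, against 16.05 to 16.23.

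For 4 named members the HDM effect differed between the sites in limma's test of that difference, ear minus back skin. It was -0.71 for Rpl11, -0.83 for Rps20, -0.88 for Rps24 and -0.81 for Rps7. For Rpl11 and Rps7 this pairs a called rise in back skin with ear differences of 0.07 and 0.06. For Rps20 and Rps24 the ear difference was below 0.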

How the results depend on the processing

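Named members were followed under the settings in 4 comparisons, not in HDM ear against HDM back skin, and no called difference of theirs changed sign. Of the members' medians, followed in all 5 comparisons, only that in ear did. The number of members lower with HDM in ear, 4 as reported, was 10 after quantile normalization, 1 with array weights, 1 with only the groups compared, and 1 to 6 with single arrays left out. The median in ear, 0.05, was -0.16 after quantile normalization and ran from -0.02 to 0.10 without single arrays. The number with a smaller effect in ear, 9, was 25 after quantile normalization, 4 with array weights, 5 without sham back mice 1 and 2, and 4 to 13 without single arrays. Sham ear lower than sham back skin gave 0, and 1 with the filter on dim clusters or without some single arrays (0 to 1). HDM ear lower than HDM back skin gave 1, and 0 to 1 without single arrays. With single arrays left out, higher in HDM back skin ran from 18 to 31 of 62 and higher in sham ear from 40 to 45. For named members, 52 calls were lost and 19 gained with single arrays left out, and 14 lost and 17 gained under other settings.

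With a replicate block, the members higher in HDM back skin numbered 25 (animal as random block, consensus correlation 0.015) or 26 (mouse number as fixed block), against 25. Of the named members' calls, the fixed block ended that of Rpl36 in back skin (adjusted p = 0.0553) and changed no other. Each member had 1 cluster, so taking another cluster for a symbol could not be run. The 2 members below background on all arrays have no usable level.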
